A study of Saccharomyces cerevisiae with 4 samples.

Results

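The RPL genes encode the proteins of the large subunit of the yeast cytosolic ribosome. They were taken as every gene whose standard name is RPL, a number and an optional A or B, which is 76 genes in the R64 gene table. Of these, 74 had a row in the deposited table, out of 6172 genes and unmatched rows in all. RPL29 and RPL36B had no row and were not analysed here. RPL22B and RPL41B were matched through an older systematic name. A value on all 4 arrays was held by 72 members, and RPL15A and RPL31B had values on 3 arrays.

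The cells were a Saccharomyces cerevisiae rlm1 mutant; RLM1 encodes a transcription factor that acts downstream of the Slt2 kinase in wall stress. They grew in rich YEPD medium at 24 °C, and part of each culture received zymolyase, a wall-digesting enzyme preparation, at 5 units per ml, while the other part went untreated. RNA was taken at 3 hours. Total RNA of both parts was compared on 4 2-colour DNA arrays, from 2 cultures with a dye exchange each. On arrays 1 and 3 the RNA from zymolyase-treated cells was in Cy3, on arrays 2 and 4 in Cy5. Both RNAs of every array came from the rlm1 mutant, and no wild-type array was analysed here. The sources used here name neither the strain background nor the number of mutant clones.

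The large subunit forms peptide bonds and lets the new chain leave through an exit tunnel. Most of its proteins are encoded in yeast by a pair of genes, A and B, left by an ancient genome duplication, and the proteins of a pair are identical or nearly so. Their messages are among the most abundant of growing yeast. Growth signals through the TOR and protein kinase A pathways set their level through promoter factors such as Rap1, Fhl1, Ifh1 and Sfp1, and many stresses lower it together with the genes of ribosome assembly.

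The deposited value is 1 log ratio of the channels per row and array, taken here as log2, on which every fold below depends. Arrays 2 and 4 were multiplied by -1 for the dye exchange, and Cy3 was taken as the numerator, so that a negative turned value stands for less RNA with zymolyase. That direction is likely and not settled: it rests on known stress genes lying on the zymolyase side, such as the glycerol synthesis gene GPD1 (mean turned log2 ratio 1.84 ± 0.52, SD, n = 4 arrays) and the general stress gene HSP12 (2.75 ± 0.49), both picked with earlier results of these data known, and the opposite reading turns every sign below. If the deposited ratios had been turned already, the values below would be dye differences. On arrays 1 to 4 the turned ratios were 3.22, 3.09, 2.52 and 2.17 for HSP12 and 2.37, 2.20, 1.42 and 1.38 for GPD1. Under the already-turned reading both genes would change sign with the dye. Which reading holds was not tested. The arrays held values for 4814 to 5657 rows. Array 2 held the fewest and had an SD of 0.63 over genes, against 0.32 to 0.35 on the others. RLM1 had a value on 0 arrays, so the mutant was not checked on its own gene. The ratios are relative to the whole labelled RNA of a channel, so less ribosomal protein RNA per cell and fewer cells that contain it cannot be told apart.

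As a group the RPL genes lay slightly on the lower side with zymolyase, and no single one passed the test. Their median turned log2 ratio was -0.071 on array 1, -0.089 on array 2, -0.084 on array 3 and -0.16 on array 4. The median was thus below 0 on every array, in both dye orientations, with a mean of -0.10 ± 0.04 (SD, n = 4 arrays). The median over all 4730 genes tested was -0.026, 0.068, -0.025 and -0.017 on the same arrays. The RPL median was therefore lower than that of all genes by 0.045 to 0.16 on the log2 scale, the smallest gap being on array 1 and the largest on array 2.

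Counted by member, 54 of the 72 RPL genes were negative on array 1, 44 on array 2, 59 on array 3 and 64 on array 4. The mean of the 4 arrays was negative for 67 of 72 members, or 93.1%, against 52.6% of all genes tested. The median of these means was -0.11, a 1.08-fold lower level, against -0.01 over all genes; with the ratios taken as already turned it would be 0.049. Without array 2, a check added after the data were seen, 64 of 72 means were negative, against 57.0% of all genes. That check leaves arrays 1 and 3 with zymolyase RNA in Cy3 and array 4 alone with it in Cy5. Dye therefore no longer cancels in means without array 2, here or below. Negative on all 4 arrays were 24 members, or 33.3%, against 8.79% of all genes. No member was positive on all 4 arrays, against 7.99% of all genes. These counts describe the list; its members share labelled cDNA through their paralogues and are not independent of each other.

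**Figure D1:**
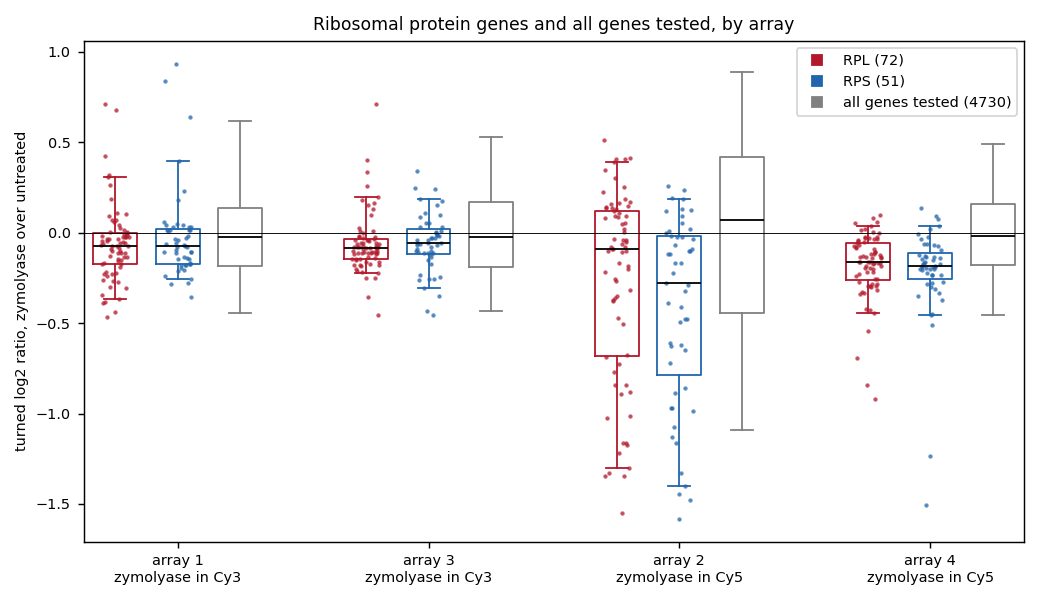
Turned log2 ratio (zymolyase over untreated, y axis) of 72 RPL genes, 51 RPS genes of the small subunit and all 4730 genes tested, by array (x axis); boxes span the quartiles with the median as a black line, whiskers reach the 5th and 95th percentiles, and points are single genes. The RPL median lies below 0 on all 4 arrays, and on array 2 the RPL genes spread from -1.55 to 0.51.

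The spread among members was narrow on 3 arrays and wide on array 2. The SD over RPL genes was 0.21 on array 1, 0.17 on array 3 and 0.19 on array 4, against 0.34, 0.31 and 0.32 over all genes. On array 2 it was 0.53, against 0.63 over all genes. The RPL values on array 2 were lopsided: 20 of 72 lay under -0.5, or 27.8% against 22.5% of all genes, whereas 1 lay over 0.5, or 1.39% against 20.3%.

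Changes were tested with limma on the means of each culture. Since the labels do not pair the arrays by culture, both possible pairings were fitted, and a gene passed where its Benjamini-Hochberg adjusted p over all genes was under 0.05 in both. Of 72 RPL genes, 0 passed, beside 3.15% of all genes tested (2.35% higher, 0.803% lower). At an unadjusted p under 0.05 in limma, 7 members passed, all lower, or 9.72%, beside 6.43% of all genes on the lower side. A limma fit of the 4 arrays with a dye term also called 0 members, beside 1.63% of all genes, with 7 at an unadjusted p under 0.05, or 9.72% beside 12.1% of all genes. Every gene received the same standard error, 0.16, from a fit with 1 residual degree of freedom, so the test amounted to a minimum mean of 0.51 on the log2 scale. Shifts of the size seen in most RPL genes lie well below what these 4 arrays could call.

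RPL39, a very small protein that lines the exit tunnel, had the lowest mean of the RPL genes. Its turned log2 ratio was -0.06 on array 1, -1.55 on array 2, -0.04 on array 3 and -0.34 on array 4. It was negative on every array, but array 2 stood far below the others. The mean was -0.50 ± 0.72 (SD, n = 4 arrays), a 1.41-fold lower level, with an adjusted p of 0.064 in limma. It passed in the pairing of arrays 1 with 2 and 3 with 4 (limma adjusted p = 0.037), as did 3.87% of all genes. It did not pass in the other pairing. Without array 2 its mean was -0.14.

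RPL9A followed with -0.14, -1.17, -0.18 and -0.20 on arrays 1 to 4. RPL34B stood at -0.02, -1.35, -0.07 and -0.14. Both were negative on every array and, as with RPL39, far lower on array 2 than elsewhere. Their means were -0.42 ± 0.50 and -0.40 ± 0.64 (limma adjusted p = 0.17 and 0.22), and without array 2 they were -0.17 and -0.08.

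RPL24A and RPL24B encode a protein that joins the subunit late, in the cytoplasm, and forms a bridge to the small subunit. RPL24A was 0.03, -1.16, -0.11 and -0.24 on arrays 1 to 4, and RPL24B was 0.05, -1.01, -0.12 and -0.19. The copies followed each other on every array, positive only on array 1. Their means were -0.37 ± 0.54 and -0.32 ± 0.47 (limma adjusted p = 0.28 and 0.40), and -0.11 and -0.09 without array 2.

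RPL40A and RPL40B encode a ribosomal protein made as a fusion to ubiquitin, and both had lower means without array 2 than with it. RPL40A was -0.26, -0.04, -0.17 and -0.92 on arrays 1 to 4, with array 4 the low one. RPL40B was -0.30, -0.19, -0.46 and -0.05. Both copies were negative on all 4 arrays, with means of -0.35 ± 0.39 and -0.25 ± 0.17. Without array 2 the means were -0.45 and -0.27, and without array 4 that of RPL40A was -0.16. The limma adjusted p was 0.33 for RPL40A and 0.58 for RPL40B.

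RPL22B and RPL8B complete the 8 lowest. RPL22B, whose pre-mRNA the Rpl22 protein keeps from being spliced, was -0.10, -0.84, -0.09 and -0.28 on arrays 1 to 4. RPL8B was -0.23, -0.69, -0.25 and -0.13. Both were negative on all arrays, and the lowest value of each was on array 2. The means were -0.33 ± 0.35 and -0.32 ± 0.25 (limma adjusted p = 0.37 and 0.38), and -0.16 and -0.20 without array 2. RPL31B and RPL15A, which had no value on array 2 and were left out of the test, were low on the 3 arrays that measured them. RPL31B was -0.44, -0.44 and -0.23 on arrays 1, 3 and 4, and RPL15A was -0.32, -0.37 and -0.15.

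At the upper end, RPL41B had the highest mean. It encodes one copy of the smallest ribosomal protein and stood at 0.06, 0.51, 0.13 and -0.03 on arrays 1 to 4, a mean of 0.17 ± 0.24 (limma adjusted p = 0.79). RPL4B was -0.17, 0.41, -0.06 and 0.04, RPL16B was -0.07, 0.35, -0.18 and 0.05, and RPL2B was -0.31, 0.41, -0.06 and 0.01. The positive means of the last 3, between 0.01 and 0.05, went with their values on array 2, and without it they were -0.06, -0.06 and -0.12.

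The 9 measured single-copy RPL genes, which have no paralogue to share signal with, all had a negative mean, with a median of -0.21 against -0.10 for the 63 tested genes of pairs. On array 2, 5 of the 9 lay under -0.5. Without array 2 the medians were -0.08 and -0.11. RPL3 and RPL10 lie near the peptidyl transferase centre, and RPL10 is among the last proteins to join. RPL3 was -0.01, -0.68, -0.11 and -0.25 on arrays 1 to 4 (mean -0.26 ± 0.29). RPL10 was -0.09, -0.89, -0.11 and -0.06 (mean -0.29 ± 0.40). Both were negative throughout and lowest on array 2.

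RPL25, at the rim of the exit tunnel where the signal recognition particle docks, varied least of the single-copy genes, with -0.10, -0.10, -0.08 and -0.03 on arrays 1 to 4 (mean -0.08 ± 0.04). RPL30, whose protein blocks the splicing of its own message, was -0.09, 0.05, -0.16 and -0.23 (mean -0.11 ± 0.12). RPL32 was -0.13, 0.02, 0.01 and -0.17 (mean -0.07 ± 0.10). None of these 3 genes shared the low values seen elsewhere on array 2. RPL5, which carries the smallest ribosomal RNA into the subunit with Rpl11, was 0.11, -0.09, -0.03 and -0.22 (mean -0.06 ± 0.14). RPL28, the gene in which classical cycloheximide resistance arises, was 0.26, -1.34, -0.06 and -0.13. Its mean of -0.32 ± 0.71 became 0.03 without array 2.

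**Figure D2:**
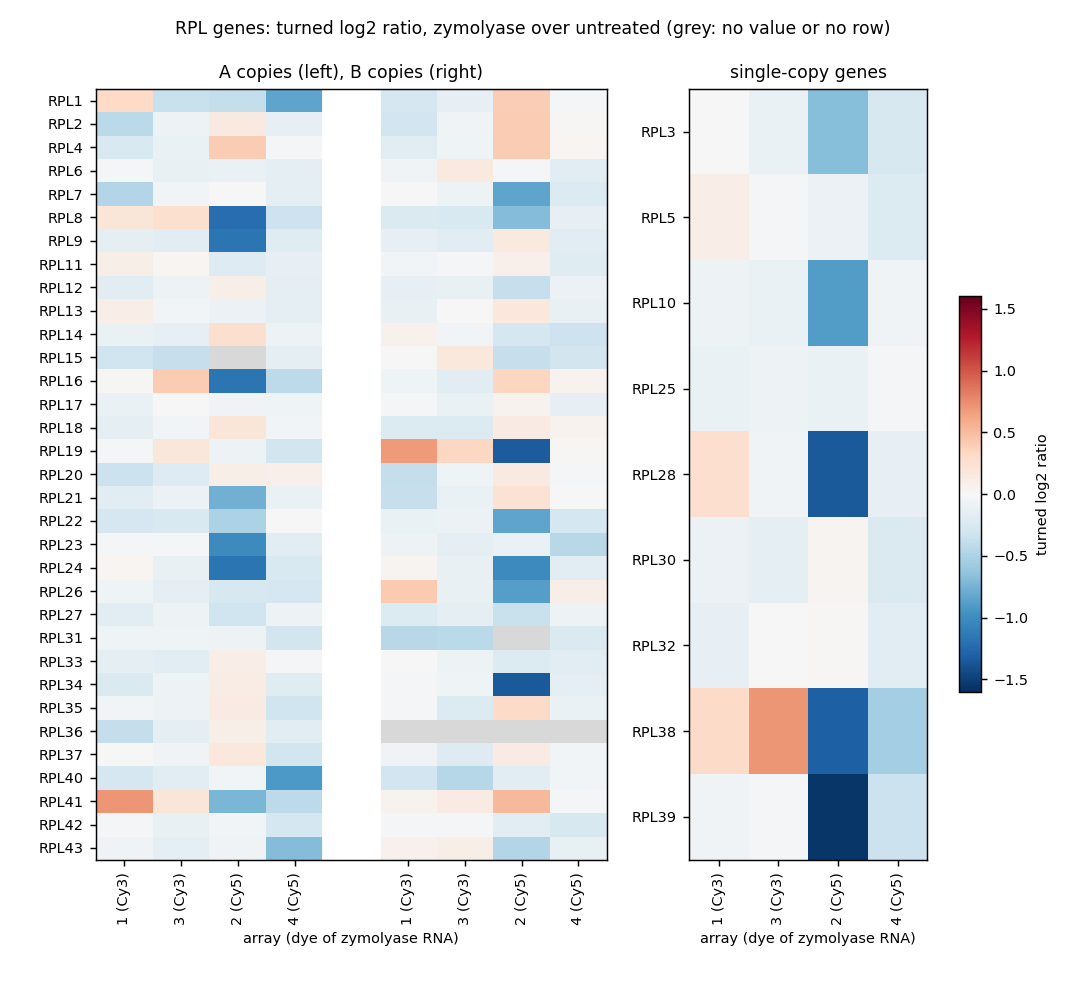
Turned log2 ratio (colour, blue lower and red higher with zymolyase) of each RPL gene on each array, with arrays on the x axis ordered by the dye of the zymolyase RNA and genes on the y axis; the left panel sets A copies beside B copies, the right panel shows single-copy genes, and grey marks missing values or rows. Array 2 holds most of the dark cells, often in only 1 copy of a pair, as in RPL9, RPL16, RPL19 and RPL34.

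By place in the subunit, 0 members of any group passed. Of the 13 tested genes of the exit tunnel and its rim, 11 had a negative mean, with a median of -0.07. Of the 7 tested genes of proteins that join late in the cytoplasm (RPL10 and the RPL24, RPL40 and RPL42 pairs), all 7 had a negative mean and 5 were negative on all 4 arrays. Their median was -0.29, and -0.11 without array 2. Negative means were held by 93.1% of all RPL genes and 52.6% of all genes. Values negative on all 4 arrays were held by 33.3% and 8.79%. Most of the 7 are paralogues of each other and not independent. The peptidyl transferase group (RPL2A, RPL2B, RPL3 and RPL10) had a median of -0.19, and the carriers of the smallest ribosomal RNA (RPL5, RPL11A and RPL11B) of -0.05. RPL12A and RPL12B, at the base of the stalk that recruits translation factors, had means of -0.08 and -0.18.

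The A and B copies could be compared within each array for 30 pairs, since both copies were read from the same labelled cDNA. Near-identical copies can each bind the cDNA of the other, so a spot need not report its own gene alone. Over the 30 pairs the median absolute A minus B difference of the 4-array means was 0.07, against 0.12 over the 1740 combinations of members of different pairs. On single arrays it was 0.11, 0.33, 0.098 and 0.13 for paralogues and 0.16, 0.43, 0.10 and 0.14 for the other combinations (arrays 1 to 4). The mean had the same sign in both copies of 27 pairs. Of the 63 tested genes of pairs, 58 had a negative mean, or 92.1%. Most pairings of unrelated members would thus share a sign too, and the count does not show agreement between paralogues.

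The B copy had the higher mean in 19 of 30 pairs, and the median A minus B difference was -0.02. On single arrays the A copy was higher in 15, 14, 15 and 9 pairs (arrays 1 to 4), and the median difference on array 4 was -0.06. An exact sign-flip test over the 4 arrays, two-sided, cannot go below p = 0.125, and adjusted over the 30 pairs its smallest value was 1.00. That test takes each array as a separate unit, but only 2 cultures were used, and over 2 cultures the smallest p is 0.5. The B copy was higher on all 4 arrays in 3 pairs, RPL2, RPL4 and RPL9, and the A copy in 0. RPL2 differed by -0.13, -0.26, -0.02 and -0.15 on arrays 1 to 4 (A minus B), and RPL4 by -0.07, -0.01, -0.04 and -0.06. Both differences were small and lay between -0.26 and 0.

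The largest differences between copies sat on array 2. RPL9A minus RPL9B was -0.01, -1.33, -0.01 and -0.03 on arrays 1 to 4. The copies of this pair thus read alike on 3 arrays, to within 0.03, and parted on array 2, where RPL9A was -1.17 and RPL9B 0.16. RPL34A minus RPL34B was -0.20, 1.47, -0.01 and -0.05, and RPL21A minus RPL21B was 0.18, -0.997, 0.00 and -0.11. The mean differences of these 3 pairs were -0.34 ± 0.65, 0.30 ± 0.78 and -0.23 ± 0.52 (SD, n = 4 arrays). Without array 2 they were -0.02, -0.09 and 0.02.

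In 2 further pairs the copies differed on more arrays. RPL16A minus RPL16B was 0.09, -1.52, 0.58 and -0.48 on arrays 1 to 4, positive where zymolyase RNA carried Cy3 and negative where it carried Cy5. RPL1A minus RPL1B was 0.59, -0.77, -0.22 and -0.81. Their mean differences were -0.33 ± 0.90 and -0.30 ± 0.65 (exact p = 0.75 and 0.375), smaller than the spread between arrays. RPL1 forms a mobile stalk beside the exit site for spent tRNA. RPL1A itself was 0.32, -0.38, -0.36 and -0.84, and RPL1B was -0.26, 0.39, -0.14 and -0.03. RPL16A was 0.02, -1.17, 0.40 and -0.42. RPL1A and RPL16A thus ranged widely. RPL16A, RPL16B and RPL1B were farthest from 0 on array 2, and RPL1A on array 4.

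The pairs most alike were RPL42, RPL37 and RPL11, with mean differences of 0.00, -0.01 and -0.01. RPL42A was -0.02, -0.04, -0.12 and -0.28 on arrays 1 to 4, and RPL42B was -0.03, -0.17, -0.02 and -0.25. Both copies were slightly negative on every array. RPL37A was -0.01, 0.17, -0.06 and -0.30 and RPL37B was -0.05, 0.13, -0.21 and -0.05. RPL11A was 0.09, -0.20, 0.03 and -0.14 and RPL11B was -0.05, 0.08, -0.02 and -0.19. In these pairs the copies still differed by up to 0.28 on a single array, so that the small mean differences include opposite deviations. RPL19 shows this most: its mean difference of 0.02 ± 0.85 was made of -0.70, 1.25, -0.15 and -0.31 on arrays 1 to 4. This pair was picked out for its spread once the values were known.

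Of the 30 pairs, 12 differed by more than 0.5 between copies on array 2, against 3 on array 1, 2 on array 3 and 3 on array 4. On array 2, both copies lay under -0.5 in 3 pairs (RPL8, RPL22 and RPL24), 1 copy alone in 9 and neither in 18. Across pairs the values of A and B correlated at r = 0.21, 0.04, 0.17 and -0.19 on arrays 1 to 4, and at 0.36 for the 4-array means (n = 30 pairs, which share arrays and labelled cDNA).

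**Figure D3:**
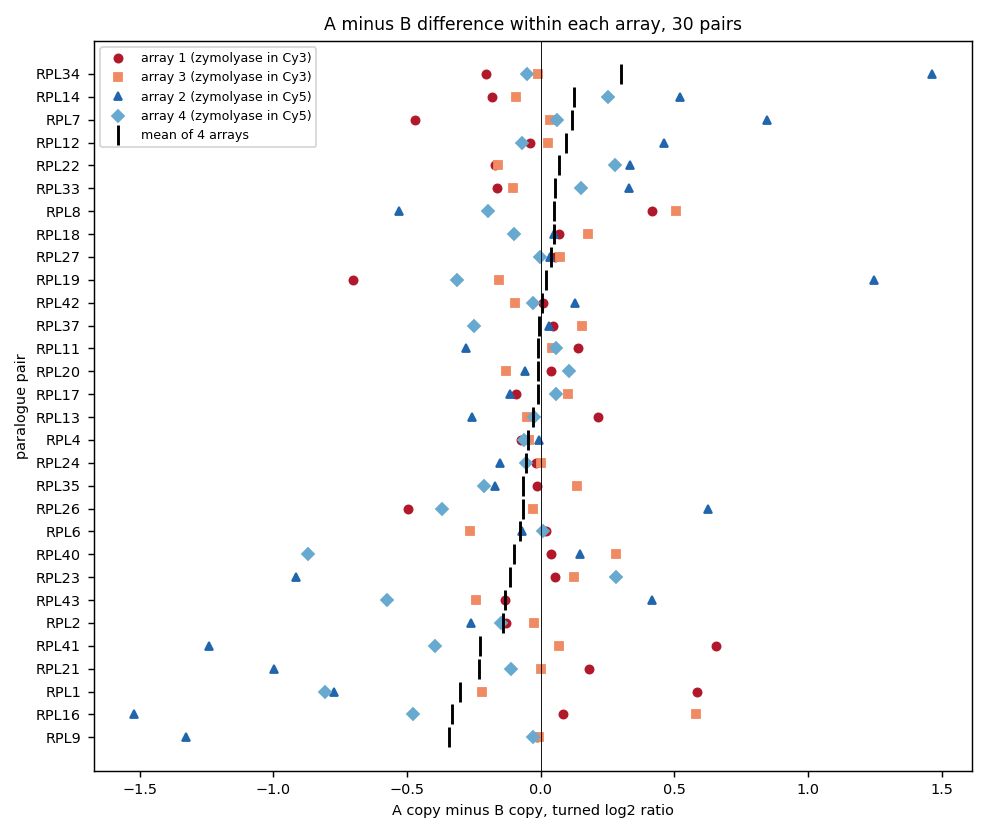
A copy minus B copy of the turned log2 ratio (x axis) within each array for the 30 RPL pairs with all values (y axis, sorted by mean); coloured symbols are single arrays and black bars the mean of 4 arrays. Array 2 (dark blue triangles) gives the extreme values, from -1.52 in RPL16 to 1.47 in RPL34, while RPL4, RPL24 and RPL27 stay close to 0 on every array.

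The dye orientations were set against each other for the same genes. After turning, a treatment effect has the same sign in both orientations and a dye effect has opposite signs. Over the 72 RPL genes, arrays of the same orientation correlated at r = 0.49 (arrays 1 and 3) and 0.23 (arrays 2 and 4). Arrays of opposite orientation correlated at -0.50 (1 and 2), -0.26 (1 and 4), -0.34 (2 and 3) and -0.17 (3 and 4). Over all genes tested the same-orientation pairs gave 0.60 and 0.44 and the opposite pairs lay between -0.13 and 0.051, or between -0.21 and -0.095 as Spearman's rho. The 51 RPS genes showed the pattern too, with 0.49 and 0.47 for the same orientation and -0.72 to -0.25 for the opposite one. The values of single RPL genes were thus more alike within a dye orientation than between orientations, which was seen in RPS genes and all genes too, whereas the RPL median had the same sign in both. These correlations are across genes, which share arrays and are not independent replicates.

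Testing the orientation difference in limma (arrays 1 and 3 minus arrays 2 and 4) called 0 of 72 members, beside 0.423% of all genes tested. At an unadjusted p under 0.05 there were 7 members, or 9.72%, beside 21.2% of all genes. The median absolute difference was 0.25 for RPL genes and 0.33 for all genes. All 7 were higher with zymolyase RNA in Cy3: RPL38, RPL41A, RPL16A, RPL8A, RPL19B, RPL39 and RPL28. Of the 1005 such genes among all genes tested, 531 were higher in that orientation. The 2 arrays with zymolyase RNA in Cy5 differed widely for RPL39 (-1.55 on array 2, -0.34 on array 4) and RPL28 (-1.34 and -0.13).

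RPL38 had the largest orientation difference of the RPL genes. With zymolyase RNA in Cy3 it was 0.31 and 0.71, and with it in Cy5 -1.30 and -0.54, so the orientations did not overlap. The difference was 1.43 ± 0.31 (SE), with a limma adjusted p of 0.069, and 0.040 once arrays were scaled to a common spread, a setting that raised the share of all genes called from 0.423% to 3.78%. RPL41A was 0.71 and 0.20 in the first orientation and -0.73 and -0.42 in the second, a difference of 1.03 ± 0.28 (adjusted p = 0.095). RPL8A was 0.19 and 0.26 against -1.22 and -0.33, and RPL16A 0.02 and 0.40 against -1.17 and -0.42. These genes had positive values whenever zymolyase RNA carried Cy3 and negative ones whenever it carried Cy5. RPL19B was 0.68 and 0.34 against -1.33 and 0.02, so its orientations did not overlap either, although only array 2 was negative. Without array 4 the orientation test called 18 members, beside 35.1% of all genes. That setting leaves array 2 as the only array with zymolyase RNA in Cy5, so it selects genes that part on array 2. Of the 18, RPL21A (-0.19, -0.77, -0.10 and -0.11 on arrays 1 to 4), RPL7B (0.01, -0.84, -0.08 and -0.22), RPL23A (-0.02, -1.02, -0.02 and -0.16) and RPL26B (0.42, -0.88, -0.11 and 0.10) have not been described above. Each was lowest on array 2, which that selection favours.

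This full split of signs, positive in Cy3 and negative in Cy5, was found in 6 of 72 members, or 8.33%, against 12.7% of all genes. The opposite split was found in another 6, against 15.8%. If the deposited ratios are taken as already turned, RPL38, RPL19B, RPL41A, RPL16A and RPL8A passed the limma test, all on the positive side (means of 0.50 to 0.72, adjusted p of 0.00096 to 0.038). That is 5 of 72 members, or 6.94%, beside 6.68% of all genes under the same reading. Under it each mean is the orientation contrast above on another scale, here tested on culture means. These passes are therefore not separate support for a change with zymolyase. In each pair the other copy, RPL8B, RPL16B, RPL19A or RPL41B, did not pass.

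**Figure D4:**
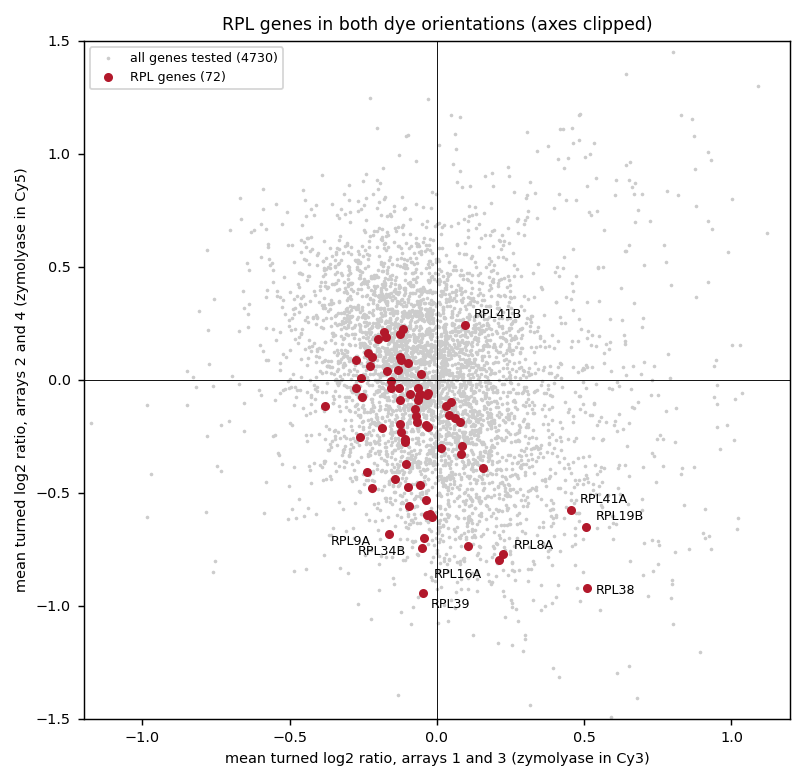
Mean turned log2 ratio on arrays 1 and 3 (zymolyase in Cy3, x axis) against that on arrays 2 and 4 (zymolyase in Cy5, y axis) for the RPL genes (red) over all genes tested (grey); 29 genes lie outside the plotted range. Most RPL genes lie left of 0, and RPL38, RPL19B and RPL41A lie to the lower right, with opposite signs in the orientations.

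The 51 tested RPS genes of the small subunit had a median of -0.15, with 49 negative means and 0 past the limma test (9 lower at an unadjusted p under 0.05, or 17.6%, beside 6.43% of all genes). RPS medians were -0.07, -0.28, -0.06 and -0.18 on arrays 1 to 4, and without array 2 the median was -0.11 for both RPS and RPL genes. The P stalk proteins RPP0, RPP1A, RPP1B, RPP2A and RPP2B belong to the large subunit under another name. Their median was -0.13, and 4 of 5 had a negative mean. The lowest was RPP1B at -0.39 ± 0.55 (limma adjusted p = 0.25), with -1.19 on array 2. Of 8 chaperones, importers and export factors of large subunit proteins, all had a negative mean and 0 passed in limma (3 lower at an unadjusted p under 0.05, or 37.5%, beside the same 6.43%). On array 2, 7 of the 8 lay under -0.5, or 87.5% against 22.5% of all genes. Without array 2, 6 of the 8 means were negative, or 75%, against 57.0% of all genes. The orientation test in limma gave 3 of them an unadjusted p under 0.05, or 37.5%, beside 21.2% of all genes. The median of the 8 was -0.27, or -0.11 without array 2. BCP1, the chaperone of Rpl23, was lowest at -0.42 ± 0.52 (limma adjusted p = 0.17).

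Of 14 tested genes that govern ribosomal protein transcription, among them RAP1 (-0.08 ± 0.17), FHL1 (-0.21 ± 0.29), IFH1 (-0.19 ± 0.74) and SFP1 (-0.01 ± 0.21), 0 passed in limma. At an unadjusted p under 0.05 in limma there were 0 as well, and the median was -0.03. The activity of several of these factors is set by phosphorylation and location in the cell, which arrays do not measure. The 32 tested MRPL genes of the mitochondrial large subunit, which are controlled separately, had a median of -0.09 and 24 negative means. Of the 32, 0 passed the limma test, and 3 were lower at an unadjusted p under 0.05, or 9.38%, beside 6.43% of all genes.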

How the data were processed

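Per the labels' protocols, total RNA was reverse transcribed with Cy5-dUTP or Cy3-dUTP. The authors' deposited values are 1 log ratio per row and array, taken as log2; scanner, background correction, normalization, log base, numerator and the rule for blank values are not given in any source used. Of 6209 rows, 2 controls were left out, 5654 matched R64 by locus tag, 57 by an older name, and 496 kept their own name. Arrays 2 and 4 were multiplied by -1. Of 6172 genes and unmatched rows, 4730 had all 4 values, and any unmatched rows among them count as genes here. Their culture means were tested in R 4.3.3 with lmFit and eBayes of limma 3.58.1, in both pairings of arrays into cultures; the larger p is given. The orientation contrast used the 4 arrays with a dye term, as if independent. The exact sign-flip test used Python 3.11.15. The fit was checked on simulated data. Without intensities the signal above background is unknown, so precision is limited by how few arrays there are; SDs over 4 arrays mix dye, technical and culture differences.

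Values on every array are given for the 8 lowest and 4 highest means, the 5 most and 3 least different pairs, single-copy genes, and genes past any test. Members and lists were chosen with earlier results of these data known. Alternatives were single pairings, a dye term, median centring, scaling to a common median absolute deviation, no turning, fewer required values and leaving out each array. No sequence tables were used here.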

Additional observations from a re-analysis of the deposited data

Results flagged for a closer look

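Array 2 stood far from the other 3 arrays in 7 of 42 values examined, that is 33 named members, 8 pair differences and the RPL median. A value counted where the gap to its nearest neighbour exceeded the Dixon limit for 4 values, which chance gives in about 1 of 20. Many of these members were named for an extreme mean or pair difference, array 2 has the widest spread, and a pair difference repeats its members' values, so the count cannot be set against that rate. RPL9A was -1.17 on array 2, against -0.20 to -0.14 on the others, while RPL9B was 0.16 on array 2, against -0.18 to -0.13. Their A minus B difference was -1.33 on array 2 and -0.03 to -0.01 elsewhere. RPL34B was -1.35 on array 2 against -0.14 to -0.02, and the RPL34 A minus B difference was 1.47 against -0.20 to -0.01. RPL21A was -0.77 against -0.19 to -0.10, and RPL10 was -0.89 against -0.11 to -0.06. The cause was not tested.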

How the results depend on the processing

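The RPL median stayed negative, from -0.14 to -0.09, with 1 array left out in turn, and after median centring, scaling or with fewer required values (-0.12 to -0.11). Taking the ratios as already turned reversed it to 0.0489 and left 27 of 72 means negative. Under that reading each mean is the orientation difference on another scale. The count of members past the test rose from 0 to 5, beside 6.68% of all genes. That count was 1 (RPL39) in the pairing of arrays 1 with 2 and 3 with 4, or 1.39% beside 3.87% of all genes. It was 0 whichever array was left out, beside 0.168% to 0.428% of all genes, so few genes of any kind passed there. At an unadjusted p under 0.05 in limma it ran from 0 (without array 4) to 8 with 1 array left out. The share of all genes at that threshold is not given here, so this range describes the members only. The count of negative means ran from 58 to 64 with 1 array left out, a setting in which dye no longer cancels in the means. The orientation test called 1 member (RPL38) after scaling, where 3.78% of all genes passed, and between 0 and 18 with 1 array left out. The 18 came without array 4, where array 2 was the only array with zymolyase RNA in Cy5 and 35.1% of all genes passed. The median absolute A minus B difference ran from 0.054 to 0.13 with 1 array left out, the high value being without array 1. Signs of 10 named members depended on 1 array, and with each array left out in turn their means ran from -0.116 to 0.121 (RPL2B, negative without array 2), -0.0648 to 0.111 (RPL16B, negative without array 2), -0.065 to 0.128 (RPL4B, negative without array 2), -0.146 to 0.0734 (RPL1B, positive without array 1, and at 0.0308 without array 3), -0.154 to 0.0446 (RPL21B, positive without array 1), -0.086 to 0.005 (RPL11B, positive without array 4), -0.122 to 0.0336 (RPL37A, positive without array 4), -0.104 to 0.0107 (RPL37B, positive without array 3), -0.51 to 0.0256 (RPL28, positive without array 2) and -0.513 to 0.158 (RPL38, positive without array 2). The cause was not tested.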
